A study of Mus musculus with 21 samples.

Results

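Cybb, Cyba, Ncf1, Ncf4, Rac2 and Hvcn1 encode parts of the phagocyte NADPH oxidase or proteins that serve it. They were taken by symbol from a table of 14273 genes, all 6 were found, and each had a value in all 21 RNA-seq libraries. All were made from spleen cells sorted from C57BL/6 mice, and they formed 7 groups of 3. Of these, 6 groups were cells positive for Ter119, an erythroid surface antigen, and for CD71, the transferrin receptor. They were split by CD45, the pan-leukocyte phosphatase, into CD45+ and CD45- cells of tumor-bearing mice, of mice with anemia and of neonatal mice, and are called tumor, anemia and neonatal cells here. The seventh group was CD11b+Gr1+ myeloid-derived suppressor cells (MDSC) of tumor-bearing mice. The labels name neither the tumor, nor the cause of the anemia, nor any age, and whether a group stands for 3 separate animals or sorts is not stated. P-values hence cover only the spread among the libraries sequenced, and this spread may be technical.

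The phagocyte oxidase passes electrons from NADPH across a membrane to oxygen and so makes superoxide. Cybb and Cyba encode its membrane core, the flavocytochrome, in which Cybb carries the electrons and Cyba steadies it and docks the cytosolic proteins. Ncf1 and Ncf4 encode cytosolic organizers that join the core on activation, Rac2 is the blood-cell GTPase that switches the complex on, and Hvcn1 is the proton channel that balances the charge leaving with the electrons. Neutrophils, monocytes and macrophages of the spleen are known for this complex, MDSC are known to make reactive oxygen with it, and Hvcn1 and Rac2 also serve B cells.

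Of the 6 genes, RefSeq annotation placed Cybb on chromosome X, Cyba on chromosome 8, Ncf1 and Hvcn1 on chromosome 5, and Ncf4 and Rac2 on chromosome 15. RefSeq start-site sequence (build GRCm38.p6) was available for 3 of the 6, and the windows of these 3 are shown. Each window runs 5′ to 3′ from 250 bases before to 30 bases after the start, on the minus strand, at chrX:9469295-9469574 for Cybb, chr5:134229596-134229875 for Ncf1 and chr8:122432911-122433190 for Cyba. Capitals mark matches on either strand to GAGGAA, the core bound by the myeloid factor PU.1, or to the interferon-response core, which is bound by interferon regulatory factors.
Cybb: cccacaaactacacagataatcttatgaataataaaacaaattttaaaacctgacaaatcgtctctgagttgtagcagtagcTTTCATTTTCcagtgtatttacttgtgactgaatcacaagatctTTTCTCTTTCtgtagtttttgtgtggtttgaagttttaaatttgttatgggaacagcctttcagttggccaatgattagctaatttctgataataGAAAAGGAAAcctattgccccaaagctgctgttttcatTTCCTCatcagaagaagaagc
Ncf1: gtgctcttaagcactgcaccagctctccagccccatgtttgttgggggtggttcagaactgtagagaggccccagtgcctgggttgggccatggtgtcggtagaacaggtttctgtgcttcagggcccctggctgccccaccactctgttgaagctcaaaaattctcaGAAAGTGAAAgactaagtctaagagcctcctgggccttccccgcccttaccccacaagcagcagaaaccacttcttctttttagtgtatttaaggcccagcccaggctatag
Cyba: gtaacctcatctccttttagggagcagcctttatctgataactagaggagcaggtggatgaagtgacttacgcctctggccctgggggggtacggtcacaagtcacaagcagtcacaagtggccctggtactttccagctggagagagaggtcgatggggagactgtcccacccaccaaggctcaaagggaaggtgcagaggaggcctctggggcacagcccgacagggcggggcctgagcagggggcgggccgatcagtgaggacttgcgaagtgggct
The interferon-response core matched 3 times in the Cybb window, with first bases at -168, -124 and -29 from the start, and once in the Ncf1 window, at -82. It was present in 3.28% of 32851 windows of the same 280 bases. GAGGAA matched in the Cybb window at 10 bases past the start, on the opposite strand, and was present in 26% of all windows. No match overlapped another, and the Cyba window held neither motif. A match describes these letters and is not a bound site.

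Levels given below are the authors' log2 values after undoing the log. Their expression unit is not given in the sources used here. Per library they summed to between 227961 and 349261, read depth is unknown, and no counting interval can be given. As no length scaling is stated, levels are compared between libraries and not between genes. Ptprc, which encodes CD45, ran from 86.7 to 477 in the 9 CD45+ libraries and from 1.23 to 5.50 in the 9 CD45- libraries. Summed levels of 10 erythroid markers were 209.7 to 1645 in CD45+ cells, 3785 to 7424 in CD45- cells and 53.0 to 115 in MDSC, so erythroid transcripts were present in every CD45+ library, below their CD45- partners. Summed levels of 10 neutrophil markers were 10978 to 28469 in tumor cells with CD45, 473 to 2796 in their anemia and 8806 to 10850 in their neonatal counterparts, 9.03 to 359 in CD45- cells and 43656 to 69135 in MDSC. Libraries numbered 3 stood apart in several groups. For example, Rac2 was lowest in replicate 3 in all 4 groups of CD45+ cells and MDSC. Where a fit without all libraries numbered 3, chosen after the data were seen, changed which oxidase genes passed, its values are given beside the result.

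In all 3 states each of the 6 oxidase genes had a higher level in CD45+ than in CD45- cells, and in each of the 18 comparisons the lowest CD45+ library was above the highest CD45- library. The share of all tested genes without such overlap is not given, here or for the later statements on overlap, so these describe the libraries only. The median log2 fold change of the 6 genes was 5.13 in tumor, 4.37 in anemia and 3.93 in neonatal mice, against 0.75, 0.68 and 0.75 over the 11195 genes tested. These 6 of 6 stood among many other calls. In tumor mice 61.1% of tested genes were called at a limma adjusted p under 0.05, 50.2% higher and 10.9% lower. In anemia 58.7% were called, 47.4% higher and 11.3% lower, and in neonatal mice 59.9%, 49.6% higher and 10.3% lower. In bulk libraries, fewer cells of a type and less RNA per cell cannot be told apart. All 10 neutrophil markers also rose with CD45 in each state, with medians of 6.91, 4.96 and 5.70, and their part in the result was not tested.

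**Figure D1:**
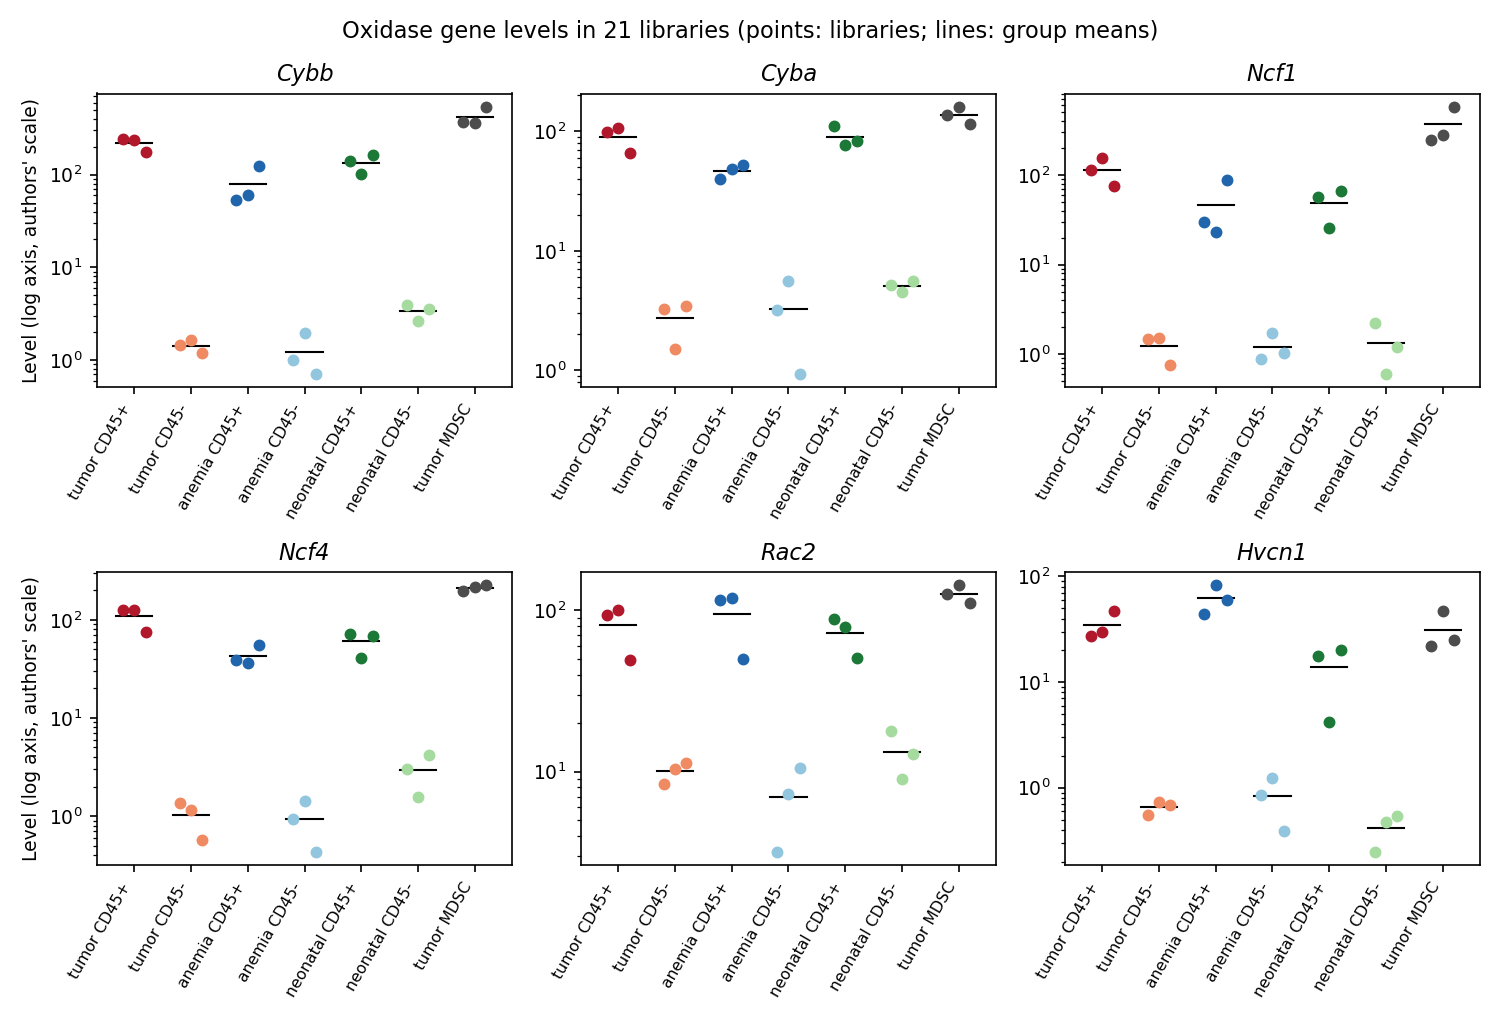
Levels of the 6 oxidase genes in the 21 libraries, on log axes in the authors' unnamed expression unit; points are libraries (replicates 1 to 3 from left to right) and lines are group means. CD45+ and MDSC libraries lie above all CD45- libraries for each gene, and Hvcn1 differs from Cybb, Ncf1 and Ncf4 in which of these groups is highest.

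Of the membrane core, Cybb had levels of 246, 235 and 178 in tumor CD45+ cells, against 1.45, 1.63 and 1.19 in tumor CD45- cells. The anemia libraries held 53.5, 60.5 and 125 in CD45+ cells and 1.01, 1.95 and 0.714 in CD45- cells. Neonatal CD45+ libraries held 140.2, 101 and 163, and neonatal CD45- libraries 3.93, 2.62 and 3.58. Every CD45+ library was far above every CD45- library, with the tumor CD45+ libraries highest. Cybb had the largest log2 fold change of the 6 genes in each state, with Hvcn1 close to it in anemia. On the log2(level + 1) scale, which understates changes of low levels, it was 6.50 ± 0.31 in tumor, 5.11 ± 0.31 in anemia and 4.94 ± 0.31 in neonatal mice (SE, limma adjusted p = 5.2e-11, 8.1e-10 and 1.9e-09). Cyba levels were 97.8, 105 and 65.1 in tumor CD45+ cells and 3.29, 1.52 and 3.44 in tumor CD45- cells. They were 39.8, 48.0 and 51.6 in anemia CD45+ against 3.19, 5.63 and 0.940 in anemia CD45- cells. In neonatal mice they were 109.8, 76.5 and 82.2 in CD45+ and 5.20, 4.57 and 5.58 in CD45- cells. The groups did not overlap in any state, and anemia CD45+ libraries were the lowest of the CD45+ libraries. Log2 fold changes of Cyba were 4.61, 3.64 and 3.87 in tumor, anemia and neonatal mice (SE 0.36 each, limma adjusted p at most 1.9e-07).

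The organizers showed the same split. Ncf1 levels were 114, 156 and 76.3 in tumor CD45+ cells, against 1.47, 1.51 and 0.754 in tumor CD45- cells. Anemia CD45+ libraries held 29.8, 23.0 and 87.6, with replicate 3 well above the others, and anemia CD45- libraries 0.882, 1.74 and 1.03. In neonatal mice Ncf1 had levels of 56.4, 25.6 and 66.5 in CD45+ cells and of 2.23, 0.610 and 1.20 in CD45- cells. The groups did not overlap in any state, and the CD45- libraries of all states lay together. Log2 fold changes were 5.66, 4.20 and 4.38 in tumor, anemia and neonatal mice (SE 0.45 each, limma adjusted p at most 5.1e-07). Ncf4, whose product binds the lipid made on phagosomes, had levels of 127, 127 and 74.7 in tumor CD45+ cells, against 1.35, 1.15 and 0.568 in tumor CD45- cells. Ncf4 was 38.5, 35.9 and 55.2 in anemia CD45+ and 0.924, 1.43 and 0.429 in anemia CD45- cells, and 72.1, 40.6 and 67.9 in neonatal CD45+ and 3.03, 1.55 and 4.23 in neonatal CD45- cells. Again no library of a CD45- group reached its CD45+ partner, with log2 fold changes of 5.75, 4.53 and 3.98 (SE 0.33 each, limma adjusted p at most 3.6e-08).

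Rac2 had the smallest log2 fold change of the 6 genes in each state, although in anemia Cyba was close to it. Rac2 levels were 93.1, 101 and 49.5 in tumor CD45+ cells, against 8.42, 10.4 and 11.2 in tumor CD45- cells. In anemia they were 117, 119.8 and 50.0 in CD45+ and 3.16, 7.22 and 10.5 in CD45- cells, and in neonatal mice 89.0, 78.8 and 50.8 in CD45+ and 17.7, 8.93 and 12.8 in CD45- cells. Replicate 3 was the lowest CD45+ library in each state and still lay above every CD45- library. Log2 fold changes were 2.84, 3.62 and 2.39 in tumor, anemia and neonatal mice (SE 0.41 each, limma adjusted p = 1.5e-05, 1e-06 and 9.6e-05). Hvcn1 levels were 27.4, 29.5 and 46.7 in tumor CD45+ cells and 0.551, 0.735 and 0.685 in tumor CD45- cells. Its anemia libraries held 44.3, 82.4 and 59.9 in CD45+ and 0.861, 1.24 and 0.389 in CD45- cells, and its neonatal libraries 17.8, 4.20 and 19.9 in CD45+ and 0.246, 0.469 and 0.544 in CD45- cells. Hvcn1 was highest in anemia CD45+ cells, unlike the core and the organizers, and replicate 2 was the low library among neonatal CD45+ cells. Its log2 fold changes were 4.38, 5.09 and 3.17 (SE 0.41 each, limma adjusted p at most 5.6e-06).

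**Figure D2:**
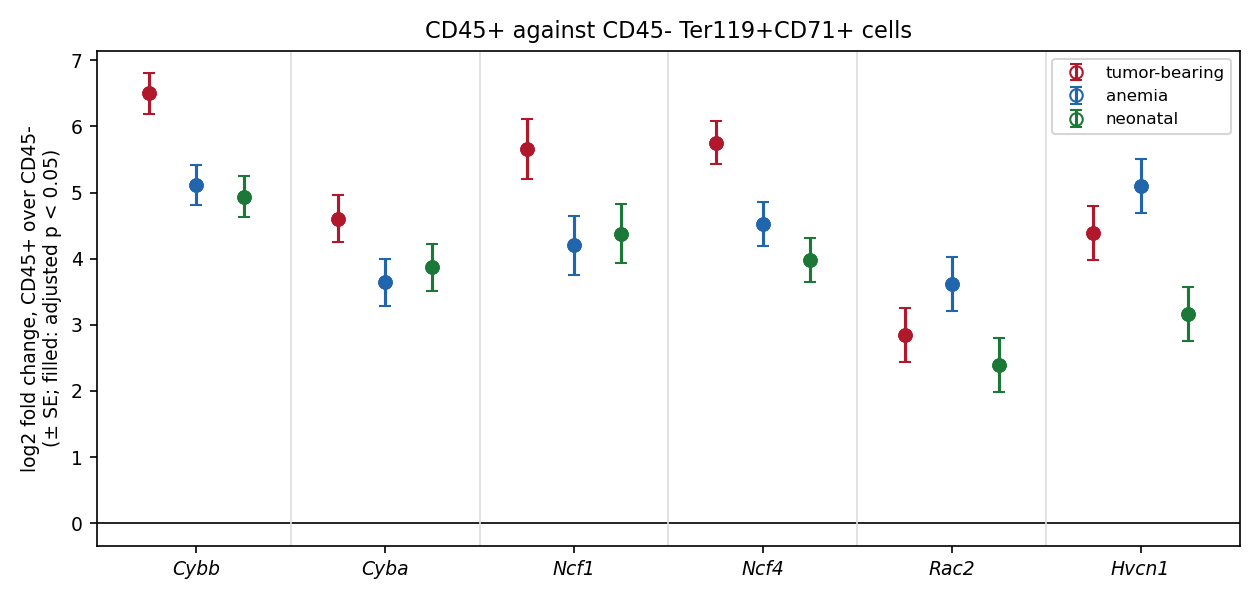
Log2 fold change (± SE) of each oxidase gene in CD45+ over CD45- cells, for tumor-bearing, anemia and neonatal mice; filled points have a limma adjusted p under 0.05. All 18 values are filled and above 0, from 2.39 for Rac2 in neonatal mice to 6.50 for Cybb in tumor-bearing mice.

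All 18 calls were kept in every alternative that was run. Median-ratio scaling, which moved the median of all genes to 0.05, 0.03 and 0.05 in tumor, anemia and neonatal mice, gave Cybb 5.70, 4.39 and 4.08 and Rac2 1.91, 2.79 and 1.48. Exons of Hvcn1 overlap those of Tctn1 on the other strand over 41.1% of its 36-base stretches, and the counting strand is not given in the sources used here. Tctn1 itself had group means of 1.82 to 3.71 and did not pass between CD45+ and CD45- cells (limma adjusted p = 0.20, 0.35 and 0.11). Ncf1 shared 9.99% of its stretches, mostly with Gtf2ird2 on the other strand, whose group means ran from 0.406 to 2.58 and which was itself higher in CD45+ cells (limma adjusted p = 0.0081, 0.0024 and 0.023), and Rac2 shared 4.12% with scattered other genes. Cybb, Cyba and Ncf4 shared none.

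Genes that work with the oxidase were counted from lists. Beside these counts, 50.2%, 47.4% and 49.6% of all tested genes were called higher with CD45 in tumor, anemia and neonatal mice. Called lower were 10.9%, 11.3% and 10.3%. Of 4 tested genes that also belong to the complex or its assembly, 3 rose and 0 fell with CD45 in each state. Rac1, the widely expressed relative of Rac2, rose by 1.71, 1.04 and 2.04 log2 units in tumor, anemia and neonatal mice, beside 2.84, 3.62 and 2.39 for Rac2. BC017643, known in mouse as the chaperone that matures the flavocytochrome, rose by 1.46, 1.01 and 1.21. Rap1a, a small GTPase that copurifies with the core, had -0.42, 0.15 and 0.05 (limma adjusted p = 0.17, 0.64 and 0.87). Of 9 genes of other NOX and DUOX enzymes, 2 were in the table, Nox1 and Noxo1, with group means of at most 0.824, and 0 passed the filter on low values. The list of activation kinases, exchange factors and lipases had 15 of 15 higher in tumor, 13 of 15 in anemia and 15 of 15 in neonatal mice, with 0 lower and medians of 4.47, 4.34 and 3.98. Plcg2, the phospholipase downstream of Syk, rose by 5.09, 4.85 and 4.69. Of 11 receptors that trigger the oxidase, 10, 8 and 9 were higher and 0 lower, and the smallest adjusted p was that of Itgb2, the common integrin chain, at 5.76, 4.85 and 4.80. All 5 tested genes that restrain the oxidase rose in each state, and the smallest adjusted p was that of Arhgap15, a Rac-inactivating protein, at 4.47, 4.40 and 3.71. Of 5 tested transcription factors of oxidase genes, 4 rose and 0 fell in each state, with Spi1, which encodes PU.1, at 5.13, 3.02 and 4.41. Among 8 tested genes that handle superoxide and peroxide, 3 fell in each state, while 1, 1 and 3 rose. Prdx2, a peroxiredoxin abundant in red cells, fell by 3.55, 2.67 and 2.73 log2 units in CD45+ cells, and Mpo, which uses the peroxide in neutrophil granules, rose by 7.04, 3.25 and 7.22.

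Ordered by mean level, MDSC were highest for 5 of the 6 genes and anemia CD45+ cells for Hvcn1. Cybb averaged 219.5 ± 36.5 in CD45+ cells of tumor-bearing mice, 79.6 ± 39.4 in those of anemia mice, 135 ± 31.2 in those of neonatal mice and 423 ± 101 in MDSC (SD, n = 3 each). From the top, MDSC, tumor CD45+ and neonatal CD45+ libraries did not overlap for Cybb, while neonatal and anemia CD45+ libraries did. Cyba averaged 89.3 ± 21.3 in tumor CD45+, 46.5 ± 6.1 in anemia CD45+, 89.5 ± 17.8 in neonatal CD45+ cells and 136 ± 23.0 in MDSC (SD, n = 3 each), with the tumor and neonatal libraries overlapping. For Ncf1 and Ncf4 the order was MDSC, tumor CD45+, neonatal CD45+ and anemia CD45+, as for Cybb, and again the last 2 groups overlapped. For Rac2, MDSC overlapped with anemia CD45+ libraries, and these with tumor and neonatal CD45+ libraries. For Hvcn1, the anemia CD45+, tumor CD45+ and MDSC libraries overlapped in turn and neonatal CD45+ libraries lay below them. Among CD45- groups, neonatal cells were highest and did not overlap with the next group for Cybb and Ncf4.

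Between tumor and anemia CD45+ cells, 3 of the 6 genes were higher in tumor cells and 0 were lower, where 10.7% of tested genes were called, 5.82% higher and 4.91% lower. Cybb was higher by 1.54 ± 0.31 log2 units (SE, limma adjusted p = 0.0033), and no tumor library overlapped an anemia library. Ncf4 was higher by 1.31 ± 0.33 and Ncf1 by 1.47 ± 0.45 (SE, limma adjusted p = 0.015 and 0.043). Anemia replicate 3, with an Ncf1 level of 87.6, overlapped the lowest tumor library at 76.3. The call on Ncf1 was lost without any of 10 libraries, with adjusted p up to 0.21 and at 0.067 under median-ratio scaling. The call on Ncf4 was lost without any of 4, tumor CD45+ replicates 1 and 2 and anemia CD45+ replicates 1 and 2, at adjusted p of 0.064 to 0.089. Without the libraries numbered 3 the differences were 2.06 for Cybb, 2.30 for Ncf1, 1.74 for Ncf4 and 1.20 for Cyba (limma adjusted p = 0.00012, 0.002, 0.0012 and 0.012), in a fit that called 33.0% of genes. With all libraries Cyba had 0.91 ± 0.36, Rac2 -0.19 ± 0.41 and Hvcn1 -0.83 ± 0.41 (SE, limma adjusted p = 0.13, 0.85 and 0.25).

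Neutrophil markers moved with these genes between tumor and anemia CD45+ cells. Of 10 markers, 9 were higher in tumor than in anemia CD45+ cells and 0 lower, and each had a value in all these libraries. Their sum was 26756, 28469 and 10978 in tumor CD45+ replicates 1 to 3, against 833, 473 and 2796 in anemia CD45+ replicates 1 to 3. The library with the lowest sum of its group among tumor cells, replicate 3, also had the lowest Cybb, Ncf1 and Ncf4 levels, and the library with the highest sum among anemia cells, replicate 3, had the highest. Anemia CD45+ sums also lay below all neonatal CD45+ sums given above. For anemia over neonatal CD45+ cells, Cybb, Ncf4 and Ncf1 had -0.83, -0.45 and -0.22 and were not called (limma adjusted p = 0.067, 0.37 and 0.79). For tumor over anemia CD45+ cells, markers of other myeloid cells were called higher too. Of the eosinophil, basophil and mast cell markers these were Prg2, Mcpt8, Siglecf and Ms4a2, at 2.33, 1.74, 0.75 and 0.69 (limma adjusted p = 0.025, 0.00042, 0.034 and 0.016). Epx, Cpa3, Hdc and Kit were not called. Of the monocyte and macrophage markers only Ly6c2 was called, at 1.84 (limma adjusted p = 0.00013). Of the factors, only Spi1 was called, higher by 1.84 in tumor cells (limma adjusted p = 0.0017). Irf8, Cebpa, Elf1 and Irf1 had -1.21, -1.08, -0.92 and -0.81 (limma adjusted p = 0.069, 0.55, 0.21 and 0.15). For tumor over neonatal CD45+ cells Spi1 had -0.26 (limma adjusted p = 0.81). The part of the neutrophil and other myeloid markers and of the factors in the differences was not tested.

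**Figure D3:**
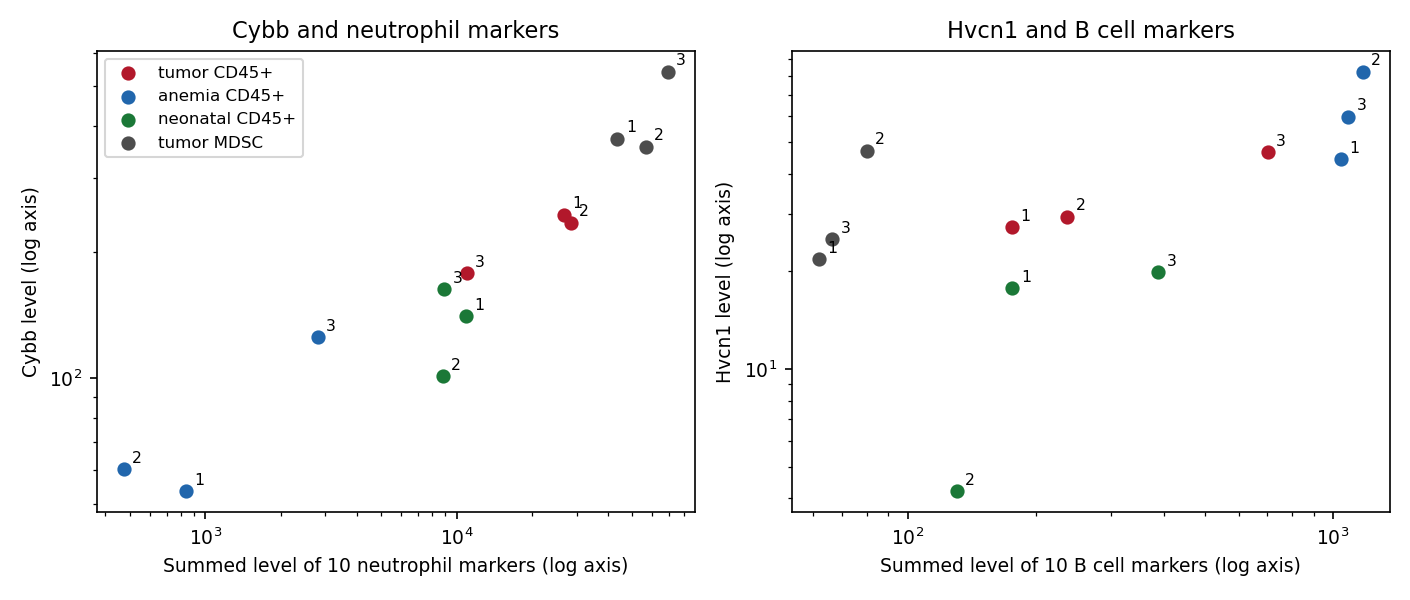
Left, Cybb level against the summed level of 10 neutrophil markers; right, Hvcn1 level against the summed level of 10 B cell markers, in the 12 CD45+ and MDSC libraries (log axes, authors' unit, numbers are replicates). Anemia libraries have the lowest neutrophil sums and the highest B cell sums, up to 1173, while MDSC have B cell sums of 61.8 to 80.2 with Hvcn1 levels of 21.8 to 47.1.

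Hvcn1 set the other states apart. It was the only member called between anemia and neonatal CD45+ cells, with a higher level in anemia by 2.27 ± 0.41 log2 units (SE, limma adjusted p = 0.00065). In that comparison 20.3% of tested genes were called, 9.08% higher and 11.3% lower. The lowest anemia library, at 44.3, was above the highest neonatal library, at 19.9. In the same comparison Cybb had -0.83 ± 0.31, Cyba -0.92 ± 0.36, Ncf4 -0.45 ± 0.33, Ncf1 -0.22 ± 0.45 and Rac2 0.32 ± 0.41 (SE, limma adjusted p = 0.067, 0.08, 0.37, 0.79 and 0.65). Without the libraries numbered 3, Cybb at -1.05 and Cyba at -1.05 passed too, in a fit that called 37.7% of genes (limma adjusted p = 0.0065 and 0.019). Hvcn1 was also the only member called between tumor and neonatal CD45+ cells, at 1.45 ± 0.41 (SE, limma adjusted p = 0.042), where 6.61% of genes were called, 2.2% higher and 4.41% lower. That call was lost without any of 12 libraries, tumor CD45+ replicates 1, 2 and 3 and neonatal CD45+ replicate 2 among them, with adjusted p up to 0.21. For Cybb, Ncf1 and Ncf4 all tumor libraries lay above all neonatal libraries, with 0.71 ± 0.31, 1.25 ± 0.45 and 0.85 ± 0.33 (SE, limma adjusted p = 0.22, 0.12 and 0.16), and these 3 genes passed without the libraries numbered 3 (limma adjusted p = 0.016, 0.014 and 0.016). That fit called 19.0% of genes, and Hvcn1 did not pass in it. The comparisons of states share groups.

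B cell markers moved with Hvcn1 among the CD45+ groups. All 10 were higher in anemia than in neonatal CD45+ cells, and their sums were 1043, 1173 and 1087 in anemia CD45+ replicates 1 to 3, against 176, 130.4 and 388 in neonatal CD45+ replicates 1 to 3. Tumor CD45+ libraries had 175, 237 and 703, of which the first 2 lay within the neonatal range, and their highest Hvcn1 level, 46.7 in replicate 3, stood with the highest sum. In MDSC the sums were 61.8 to 80.2, below all neonatal CD45+ libraries, and yet Hvcn1 levels there were 21.8, 47.1 and 25.2, above all neonatal CD45+ libraries. T and NK cell markers moved with Hvcn1 as well, with 7 of 9 higher in anemia than in neonatal CD45+ cells and 0 lower. Their sums were 149.5 to 249 in anemia CD45+ cells, against 18.1 to 50.0 in neonatal CD45+ cells. Of 7 dendritic cell markers, 5 were higher and 0 lower. The part of these markers in the Hvcn1 differences was not tested.

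**Figure D4:**
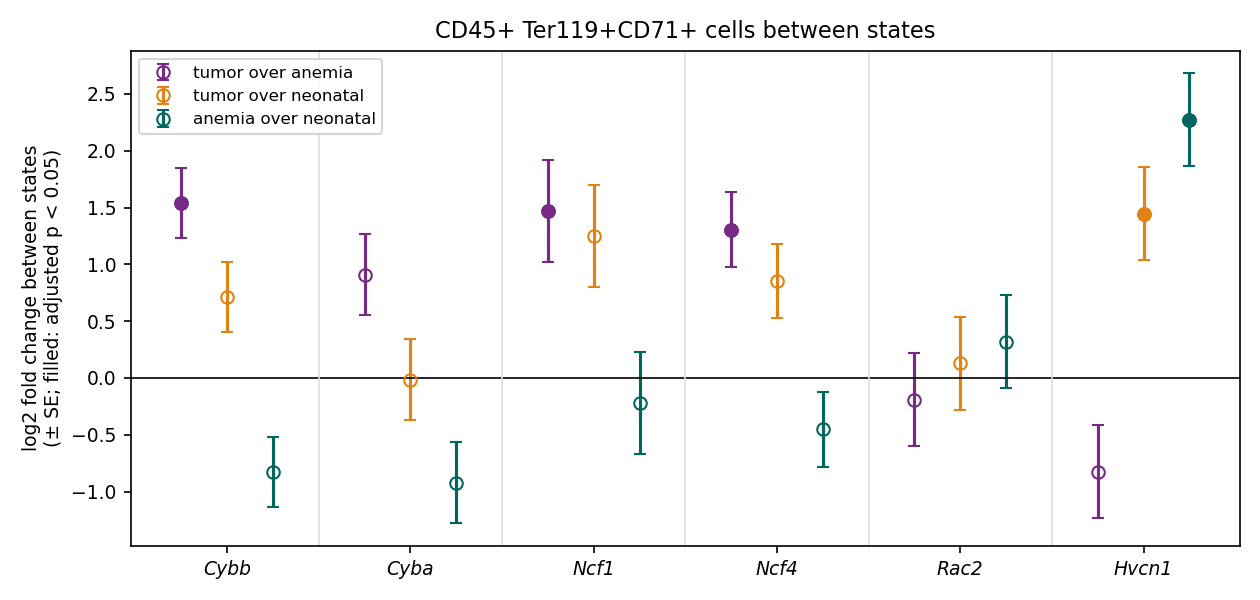
Log2 fold change (± SE) of each oxidase gene between CD45+ cells of 2 states: tumor over anemia, tumor over neonatal and anemia over neonatal; filled points have a limma adjusted p under 0.05. Cybb, Ncf1 and Ncf4 are filled for tumor over anemia, and Hvcn1 for the comparisons with neonatal cells, with 2.27 as its highest value.

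Among CD45- cells, limma called 0 of the 6 genes between any states with all libraries in the fit, where 0.152% of genes were called for tumor against anemia, 2.54% for tumor against neonatal and 4.34% for anemia against neonatal. At an unadjusted p under 0.05, 0 members differed between tumor and anemia, Cybb and Ncf4 between tumor and neonatal, and Cybb, Ncf4 and Rac2 between anemia and neonatal cells. At that threshold stood 7.63%, 11.5% and 16.9% of all genes in these comparisons. Cybb had -0.84 ± 0.31 for tumor over neonatal and -1.00 ± 0.31 for anemia over neonatal CD45- cells (SE, limma adjusted p = 0.22 and 0.079), and Ncf4 had -0.92 ± 0.33 and -1.00 ± 0.33 (SE, limma adjusted p = 0.20 and 0.10). For anemia over neonatal CD45- cells, Cybb at -0.79 and Rac2 at -1.22 passed without the libraries numbered 3, where 23.8% of genes were called (limma adjusted p = 0.037 and 0.027). With a pseudocount of 0.1, Cybb at -1.48 and Ncf4 at -1.58 passed (limma adjusted p = 0.015 and 0.033), and Cybb also passed without anemia CD45+ replicate 3. For both Cybb and Ncf4 all tumor and anemia CD45- libraries lay below all neonatal CD45- libraries. Summed neutrophil markers were 31.7 to 359 in tumor CD45-, 9.03 to 13.9 in anemia CD45- and 119.7 to 202 in neonatal CD45- cells, with 0 of 10 lower for tumor and 5 for anemia over neonatal CD45- cells. Summed levels of 9 monocyte and macrophage markers were 5.31 to 15.7 in tumor CD45-, 7.29 to 16.6 in anemia CD45- and 24.0 to 37.6 in neonatal CD45- cells, and limma called 0 of the 9 in either comparison. Tyrobp, an adaptor of activating receptors on myeloid and NK cells, fell by 2.00 in tumor and 1.49 in anemia CD45- cells relative to neonatal CD45- cells (limma adjusted p = 0.0028 and 0.022). The part of these genes in the oxidase values was not tested.

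Whether the CD45 difference itself depended on the state was tested as an interaction. With all libraries in the fit, limma called 0 of the 6 genes in any of the 3 tests, where 2.2%, 1.08% and 6.93% of genes were called for tumor minus anemia, tumor minus neonatal and anemia minus neonatal. At an unadjusted p under 0.05 there were 3 members (Cybb, Ncf1 and Ncf4), 2 (Cybb and Ncf4) and 2 (Rac2 and Hvcn1), where 15.2%, 9.56% and 19.3% of all genes stood. Cybb had 1.38 ± 0.43 log2 units for tumor minus anemia and 1.56 ± 0.43 for tumor minus neonatal (SE, limma adjusted p = 0.11 each). Ncf4 had 1.78 ± 0.46 for tumor minus neonatal and Hvcn1 1.93 ± 0.58 for anemia minus neonatal (SE, limma adjusted p = 0.081 and 0.055). Without the libraries numbered 3, Cybb, Cyba, Ncf1 and Ncf4 passed for tumor minus anemia, at 2.00, 1.88, 2.17 and 1.69, in a fit that called 17.2% of genes. In the same way Cybb at 1.74 and Ncf4 at 1.73 passed for tumor minus neonatal, where 6.88% were called, and Rac2 at 1.71 for anemia minus neonatal, where 16.9% were called.

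Against MDSC, no CD45+ group exceeded the MDSC level of any member at the threshold. Cybb levels in MDSC were 373, 357 and 539.8, Cyba levels 135, 159.5 and 114, Ncf1 levels 245, 281 and 578, and Ncf4 levels 197, 214 and 224. Rac2 levels in MDSC were 127, 143 and 112. Among MDSC, replicate 3 was highest for Cybb, Ncf1 and Ncf4 and lowest for Cyba and Rac2. Cybb in tumor CD45+ cells came to 51.9% of the MDSC mean, in anemia CD45+ cells to 18.8% and in neonatal CD45+ cells to 31.8%. For Ncf1 these shares were 31.3%, 12.7% and 13.4%, for Ncf4 51.7%, 20.4% and 28.4%, and for Cyba 65.6%, 34.1% and 65.7%. Rac2 held 64%, 75.1% and 57.3% and Hvcn1 110%, 198% and 44.5%.

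Tumor CD45+ cells were lower than MDSC in 2 of the 6 genes, where 9.82% of 11294 tested genes were called, 8% higher and 1.82% lower. Ncf1 was lower by 1.62 ± 0.45 and Ncf4 by 0.99 ± 0.31 log2 units (SE, limma adjusted p = 0.029 and 0.048). The Ncf1 call was lost without any of 3 libraries (tumor CD45+ replicate 3 and MDSC replicates 2 and 3) and the Ncf4 call without any of 13, among them the same 3 and MDSC replicate 1, with adjusted p up to 0.17 and 0.27. Without the libraries numbered 3 the values were -0.97 for Ncf1 and -0.69 for Ncf4 (limma adjusted p = 0.16 and 0.15), and 8.53% of genes were called. Cybb had -0.93 ± 0.30, Cyba -0.62 ± 0.34, Rac2 -0.70 ± 0.39 and Hvcn1 0.17 ± 0.41 (SE, limma adjusted p = 0.055, 0.29, 0.29 and 0.85), although for the first 3 no tumor library reached an MDSC library. Cybb was called in tumor CD45+ cells under median-ratio scaling, at -1.25 (limma adjusted p = 0.025).

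Anemia CD45+ cells were lower than MDSC in 4 genes and higher in 0, where 37.9% of genes were called, 24.5% higher and 13.5% lower. Cybb was lower by 2.47 ± 0.30, Ncf1 by 3.09 ± 0.45, Ncf4 by 2.29 ± 0.31 and Cyba by 1.53 ± 0.34 log2 units (SE, limma adjusted p = 2.3e-06, 2.3e-05, 7.8e-06 and 0.0015), with no overlap. Hvcn1 had 1.00 ± 0.41 and Rac2 -0.50 ± 0.39 (SE, limma adjusted p = 0.064 and 0.33). Hvcn1 passed under quantile normalization, at 1.24, and when scaled without haemoglobin genes, at 1.38 (limma adjusted p = 0.041 and 0.011). Neonatal CD45+ cells were lower than MDSC in 4 genes and higher in 0, where 25.8% of genes were called, 18.2% higher and 7.57% lower. Cybb was lower by 1.65 ± 0.30, Ncf1 by 2.87 ± 0.45, Ncf4 by 1.84 ± 0.31 and Hvcn1 by 1.27 ± 0.41 (SE, limma adjusted p = 4e-04, 1e-04, 0.00017 and 0.028). The Hvcn1 call was lost without neonatal CD45+ replicate 2 or MDSC replicate 2, at adjusted p of 0.15 to 0.21. Cyba had -0.60 ± 0.34 and Rac2 -0.83 ± 0.39 (SE, limma adjusted p = 0.21 and 0.13), and Rac2 passed under median-ratio scaling, at -1.20 (limma adjusted p = 0.025).

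**Figure D5:**
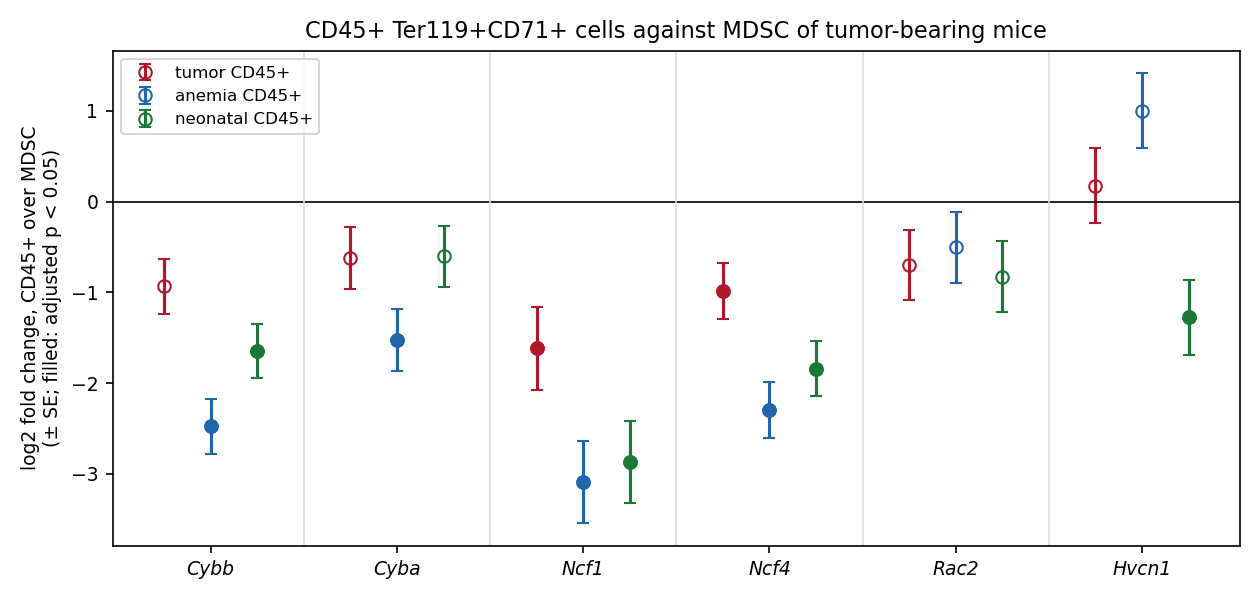
Log2 fold change (± SE) of each oxidase gene in tumor, anemia and neonatal CD45+ cells over MDSC; filled points have a limma adjusted p under 0.05. Filled points lie below 0, the lowest being Ncf1 in anemia CD45+ cells at -3.09, and Hvcn1 in anemia CD45+ cells is the highest point at 1.00.

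Of the neutrophil markers, 3 of 10 were lower in tumor, 10 in anemia and 8 in neonatal CD45+ cells than in MDSC, and 0 were higher. Monocyte and macrophage markers went both ways at the threshold. In neonatal CD45+ cells Adgre1 had 4.41, Csf1r 3.96, Ms4a7 2.28 and Cd68 2.02 log2 units over MDSC. Ccr2 had -1.51 and Ly6c2 -1.07 there. In anemia CD45+ cells Adgre1 and Ms4a7 were higher and Ly6c2 and Cd14 lower. In tumor CD45+ cells Ms4a7 was higher and Ly6c2 lower. The part of these markers in the oxidase values was not tested. In the same comparisons Itgb2 was lower by 0.86, 1.70 and 1.66 log2 units, and Spi1 was lower by 1.04 in tumor and 2.88 in anemia CD45+ cells. Irf8, a factor of monocyte and dendritic cell development, was higher than in MDSC in all 3, by 1.69, 2.91 and 2.46. Of the 15 activation genes, 0 passed in tumor CD45+ cells, 1 was higher and 5 were lower in anemia, and 1 was lower in neonatal CD45+ cells. The median over all genes was 0.18, 0.21 and 0.23 against MDSC in tumor, anemia and neonatal cells, and -0.81, -1.91 and -1.46 over the 6 oxidase genes.

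Within the 12 CD45+ and MDSC libraries, the members fell apart in how they varied. Pearson correlations of log2(level + 1) were 0.967 between Cybb and Ncf4, 0.960 between Ncf1 and Ncf4, 0.954 between Cybb and Ncf1 and 0.860 between Cybb and Cyba. Cybb had 0.194 with Rac2 and -0.133 with Hvcn1. Over all 21 libraries, with the CD45- cells included, every pair was at 0.882 or above. These libraries share groups, so the values are a description with no test. Among 10921 genes compared, the genes most like each member over the 21 libraries were listed. Ncf4 and Fosl2 were among the 3 most like Cybb, both at 0.996, and Cybb and Fosl2 among the 3 most like Ncf4. Cyba had Actn1 at 0.992, Rogdi at 0.989 and Gmfg at 0.988, and Ncf1 had Ceacam1, Adam8 and Pirb, at 0.993, 0.993 and 0.992. The genes nearest to Rac2 reached lower values, with Jak3 at 0.970, Ric8 at 0.970 and Atn1 at 0.969. Hvcn1 had Arhgef18 at 0.988, Itpr2 at 0.987 and Pbxip1 at 0.986.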

How the data were processed

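RNA from 21 sorted spleen cell libraries in 7 groups of 3 was sequenced after TruSeq RNA library preparation, per the labels' protocols. Spleen is the tissue label of all libraries, although the extraction protocol mentions retinas. Per the submitters' processing notes, the aligner was Bowtie 0.12.2 and the build mm8. The authors deposited log2 expression values per gene. The quantification tool, annotation, strand setting and scale behind the log are not given in the sources used here. Depth is therefore unknown, and the spread between libraries carries all of the error.

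Values were taken out of the log, blank cells (7.9%) were taken as 0, and log2(value + 1) was analysed without further scaling. Testing was limited to genes that reached 1 in 3 or more libraries. These were 11195 genes for the 18 Ter119+CD71+ libraries and 11294 for all 21, the larger set serving the comparisons with MDSC. All 6 oxidase genes passed both filters. Group means were fitted with limma 3.58.1, statmod 1.5.0 and R 4.3.3 (trend and robust options, two-sided), with p-values adjusted by the Benjamini-Hochberg method over all tested genes at a threshold of 0.05. The fit was tested on simulated data. Interaction terms compared the CD45 difference between states.

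The oxidase genes and lists were chosen with earlier results of these data known. Named beside the 6 genes were up to 3 genes of a list with the smallest adjusted p, the 3 most correlated genes, the sort antigens, and, chosen after their values were seen, Rap1a, Nox1, Noxo1, Tctn1, Gtf2ird2, and a few list members kept across comparisons. The other transcription factors in tumor over anemia CD45+ cells were also named after their values were seen. So were the single monocyte and macrophage markers and the single eosinophil, basophil and mast cell markers. A further gene of the complex is not reported here. Alternatives were other pseudocounts, filters, scalings, treatments of blanks, sets of libraries, a replicate block and leaving out each library. Groups share replicate numbers: the deviations of libraries with the same number correlated at -0.171 to 0.411, with 28 of 36 above 0.1. All 3 pairs were above 0.1 for the CD45 comparison in each state, for tumor against neonatal CD45+ cells, and for tumor and anemia CD45+ cells against MDSC. No label says what a number marks.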

Additional observations from a re-analysis of the deposited data

How the results depend on the processing

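Of 33 calls on the 6 oxidase genes, 27 held in every alternative run for them, all 18 between CD45+ and CD45- cells among these. The other 6 were Ncf1 and Ncf4 in tumor over anemia CD45+ cells, Hvcn1 in tumor over neonatal CD45+ cells, Ncf1 and Ncf4 in tumor CD45+ cells over MDSC, and Hvcn1 in neonatal CD45+ cells over MDSC, each with an adjusted p of at least 0.028 except Ncf4 over anemia (0.015). The cause of these changes was not tested. Without depth, low values such as those of CD45- cells have no counting error attached, and 3 libraries a group limit every test.

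Member calls changed as follows from 3 for tumor over anemia CD45+, 1 for tumor over neonatal CD45+, 1 for anemia over neonatal CD45+, 2 for tumor CD45+ over MDSC, and 0 between CD45- states and in the interactions. With a pseudocount of 0.1 they were 1, 0, 1 and 0 in these comparisons, and 2 for anemia over neonatal CD45- cells. With a pseudocount of 5, tumor over neonatal CD45+ had 2, anemia over neonatal CD45+ had 3, and the tumor minus anemia and anemia minus neonatal interactions had 1 each. Tumor CD45+ over MDSC had 1 with no filter, 0 after quantile normalization and 1 when scaled without haemoglobin genes. Tumor over neonatal CD45+ had 0 with a filter at 5 and 0 when scaled without haemoglobin genes. The anemia minus neonatal interaction had 1 after quantile normalization, 1 without haemoglobin genes and 1 with all 21 libraries in the fit, where tumor minus neonatal also had 1. Without the libraries numbered 3, an alternative chosen after the data were seen, tumor over neonatal and anemia over neonatal CD45+ had 3 each, anemia over neonatal CD45- 2, the interactions 4, 2 and 1, and tumor CD45+ over MDSC 0.

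Counts over all genes moved by more than 1.5 times in these cases. For tumor over anemia CD45+ (1201 genes) they were 723 with a pseudocount of 0.1, 744 with a filter at 5 and 3508 without the libraries numbered 3. For tumor over neonatal CD45+ (740) they were 1238 with no filter, 370 with a filter at 5 and 2022 without the libraries numbered 3. For anemia over neonatal CD45+ (2277) they were 1397 with a filter at 5 and 4000 without the libraries numbered 3. For tumor over anemia CD45- (17) they were 35 under median-ratio scaling, 26 without haemoglobin genes, 41 with 21 libraries and 552 without the libraries numbered 3. For tumor over neonatal CD45- (284) they were 707 and 145 with pseudocounts of 0.1 and 5, 581 with no filter, 149 with a filter at 5, 487 under median-ratio scaling, 186 with blanks as missing and 1483 without the libraries numbered 3. For anemia over neonatal CD45- (486) they were 810 and 273 with these pseudocounts, 793 with no filter, 300 with a filter at 5, 801 under median-ratio scaling and 2524 without the libraries numbered 3. For tumor CD45+ over MDSC (1109) there were 658 with only the 9 libraries of tumor-bearing mice. For the tumor minus anemia interaction (246) they were 61 and 417 with the pseudocounts, 162 with a filter at 5, 146 with blanks as missing, 384 with 21 libraries and 1822 without the libraries numbered 3. For tumor minus neonatal (121) they were 233 with no filter, 68 with a filter at 5, 182 under median-ratio scaling, 46 with blanks as missing and 730 without the libraries numbered 3. For anemia minus neonatal (776) they were 349 with a pseudocount of 0.1, 467 with a filter at 5 and 1791 without the libraries numbered 3.

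With 1 library left out at a time, member calls ranged from 1 to 4 for tumor over anemia CD45+, 0 to 2 for tumor over neonatal CD45+, 1 to 2 for anemia over neonatal CD45+, 0 to 1 for anemia over neonatal CD45-, 0 to 3, 4 to 5 and 3 to 4 for tumor, anemia and neonatal CD45+ over MDSC, and 0 to 2, 0 to 1 and 0 to 1 for the interactions in the order above. Counts over all genes ranged from 546 to 2227, 429 to 1136 and 1508 to 2540 between CD45+ states, 0 to 90, 155 to 374 and 212 to 629 between CD45- states, 501 to 1281 for tumor CD45+ over MDSC, and 84 to 1184, 43 to 395 and 429 to 1135 for the interactions.

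Signs turned only for log2 differences that did not pass. Cyba in tumor over neonatal CD45+ cells, at -0.01, was 0.05 under median-ratio scaling, 0.05 after quantile normalization and 0.14 without the libraries numbered 3 (-0.15 to 0.20 with 1 library left out). Hvcn1 in tumor CD45+ cells over MDSC, at 0.17, was -0.13 under median-ratio scaling and -0.17 without the libraries numbered 3 (-0.06 to 0.50). Ncf1 in tumor over neonatal CD45- cells, at -0.03, was 0.06 under median-ratio scaling, 0.19 after quantile normalization, 0.03 without haemoglobin genes and 0.13 without the libraries numbered 3 (-0.27 to 0.23). Ncf1 in anemia over neonatal CD45- cells was 0.06 and Cyba in tumor over anemia CD45- cells 0.01 after quantile normalization (-0.29 to 0.21 and -0.54 to 0.35). In the anemia minus neonatal interaction, Cyba was 0.01 with a pseudocount of 0.1 (-0.71 to 0.18), Cybb -0.36 and Ncf4 -0.01 with a pseudocount of 5, and Cybb -0.26 without the libraries numbered 3 (-0.20 to 0.40 for Cybb, 0.29 to 0.83 for Ncf4). With 1 library left out, signs also turned for Ncf1 in that interaction (-0.74 to 0.20), Ncf1 in anemia over neonatal CD45+ (-0.79 to 0.16), Rac2 in tumor over anemia CD45+ (-0.60 to 0.13) and over neonatal CD45+ (-0.11 to 0.45). In tumor over anemia CD45- cells they turned for Ncf1 (-0.09 to 0.19), Ncf4 (-0.12 to 0.26), Hvcn1 (-0.30 to 0.04) and Cybb (-0.01 to 0.38).

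With the replicate number as a block, 6 of 6 members were called between CD45+ and CD45- cells in each state (7199, 6935 and 7113 genes in all), Cybb in tumor mice had 6.50 ± 0.31 (SE), and the block changed no member call. Of 36 same-number correlations, 23 were the highest of the 3 possible, as a hint from the data only.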
